A study of Homo sapiens with 30 samples.

Results

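RNA levels of the cyclins, cyclin-dependent kinases (CDKs), RB family proteins and E2F1 that move a cell from G1 into S phase were examined in human diffuse large B cell lymphoma (DLBCL) lines. The set held 10 of the 60656 genes in the deposited tables, chosen by symbol: CCND2, CCND3, CCNE1, CCNE2, CDK2, CDK4, CDK6, RB1, RBL1 and E2F1. RNA sequencing gave 30 libraries in 10 groups of 3 replicates. Cultures of HT, SUDHL5, OCI-LY3 and OCI-LY19, established lines all given as wild type, were sampled untreated (0 h) and 24 h into treatment with 0.2 µM doxorubicin. Doxorubicin is a chemotherapy drug that traps topoisomerase II on DNA and so leaves breaks. A second experiment compared OCI-LY19S, the sensitive parental culture kept free of drug, with OCI-LY19R, a derivative with acquired resistance kept in 20 nM doxorubicin until 1 week before use. All untreated libraries are from 0 h, which means that effects of drug and of culture time cannot be told apart. OCI-LY19R is 1 derived culture. Nothing in the labels says whether replicates were separate cultures, so p-values measure the spread between these samples. OCI-LY3 and HT were grown in medium with more serum than OCI-LY19 and SUDHL5.

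Cyclin D with CDK4 or CDK6, followed by cyclin E with CDK2, phosphorylates the RB family proteins. Unphosphorylated RB holds E2F transcription factors in check, and its phosphorylation frees them to switch on genes of DNA replication, among them those of E2F1 itself and the E cyclins. After DNA damage, p53 raises the CDK inhibitor p21, which keeps RB unphosphorylated and E2F targets low. RNA levels do not show phosphorylation or protein amount.

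Values are the authors' FPKM, read counts corrected for gene length and library size, so levels can be set side by side between genes within a table. A change is the difference of log2(FPKM + 1) between group means with its standard error (SE), a scale that understates the change of low genes. Changes were tested with limma over 17645 genes in the 4 lines and 12785 genes in the resistance experiment, and a gene is said to rise or fall where the Benjamini-Hochberg adjusted p was below 0.05. Of the 10 genes 9 passed the filter on low values, and CCND2 did not. Each value is a mean over many cells, so fewer cells of a kind and less RNA per cell cannot be told apart.

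Recovered reads per library ran from 16067405 to 38337869 in the 4 lines. The resistance libraries had 18354091 to 33439107 reads, except OCI-LY19S replicate 3 with 121769119. All 6 B cell markers examined had a group mean of at least 1 FPKM in every group. Markers of T and NK cells summed to at most 17.4 FPKM, of myeloid cells to at most 18.9 and of stromal, epithelial and endothelial cells to at most 4.94, and at least 1 marker of each of these lists was at 0 in every library of most groups. The myeloid sum was 5.11 to 9.12 FPKM in untreated and 14.5 to 18.9 in treated OCI-LY19, the T and NK sum 3.93 to 4.47 in untreated and 14.1 to 16.6 in treated SUDHL5, and the B cell sum 1255 to 1507 in untreated and 680 to 852 in treated OCI-LY3. Their part in the results was not tested. The untreated SUDHL5 replicates differed by little more than counting error (mean chi-square per gene 1.98 to 2.55 between pairs, 9.20 to 33.9 in the other untreated lines), so their spread may be technical. The fit pooled the spread of each gene over all groups of the 4 lines. SEs and p-values in SUDHL5 therefore also carry the larger spread of the other lines. All SUDHL5 libraries lack the tag in the names of the other lines, and their name suffix differs from those lines too. What these mark is not given, and it cannot be told apart from the line where SUDHL5 is compared with the others. In OCI-LY3 the median change of all genes was 0.16. It was 0.01 with median-of-ratios scaling, where 51.2% rather than 73.9% of calls were upward. The share of upward calls moved from 70.9% to 55.7% in HT with the same scaling, from 57.0% to 44.8% in OCI-LY19R, and from 59.3% to 44.7% in OCI-LY19 with quantile normalization.

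The genes of the E2F1, CDK2 and E cyclin arm went opposite ways in different lines after doxorubicin. They rose most in OCI-LY3, where CDK2 went up 2.67-fold and CCNE2 2.49-fold. They fell in OCI-LY19, where E2F1 dropped to 0.408 of the untreated FPKM. CCND3, outside this arm, dropped to 0.265 in OCI-LY19 and also fell in HT. RB1 rose and RBL1 fell in each of the 4 lines. In OCI-LY3 6 of the 9 genes tested rose and 3 fell, against 40.4% and 14.3% of all genes tested (54.7% in either direction). HT had 4 rising and 2 falling, against 22.9% and 9.41% (32.3%). In OCI-LY19 1 rose and 8 fell, against 34.5% and 23.7% (58.2%). SUDHL5 had 1 rising and 5 falling, against 18.6% and 19.9% (38.5%). OCI-LY19R differed from OCI-LY19S in 1 gene, CDK6, which was lower, where 5.44% of all genes differed in either direction 2.34% were lower and 3.11% higher.

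**Figure D1:**
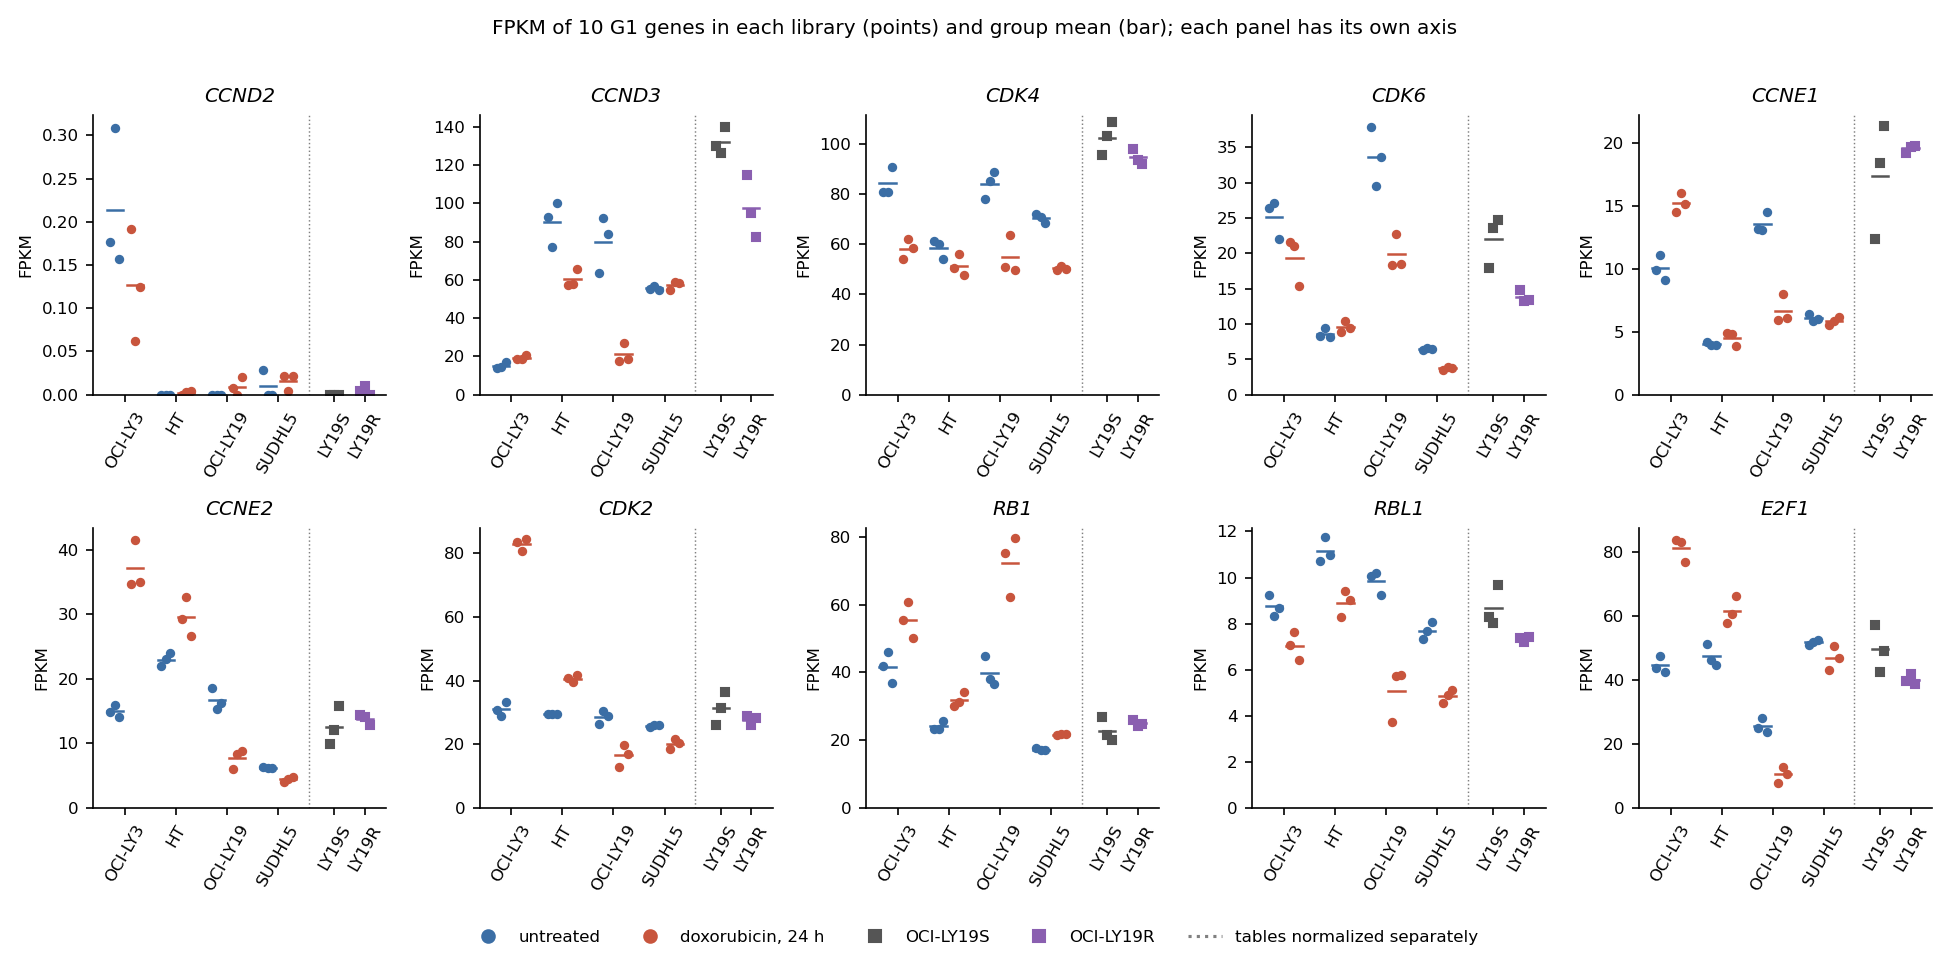
FPKM of the 10 genes in each library, 1 panel per gene with its own linear axis from 0. Circles are the 4 lines untreated (blue) or after 24 h of doxorubicin (red), squares are OCI-LY19S (grey) and OCI-LY19R (purple), bars are group means of 3, and the dotted line parts tables that were normalized separately. CDK2 in treated OCI-LY3 (80.6 to 84.4 FPKM) and RB1 in treated OCI-LY19 (62.4 to 79.6 FPKM) each stand above every other library plotted.

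CCND3 was the D cyclin of these cells, and CCND2 was barely present. Both encode D-type cyclins, the regulatory partners of CDK4 and CDK6. CCND2 (ENSG00000118971.9, GRCh38 chromosome 12, 4273772 to 4305350, plus strand) reached 0.177, 0.308 and 0.157 FPKM in untreated OCI-LY3 and 0.192, 0.0625 and 0.125 FPKM after doxorubicin. No other library exceeded 0.03 FPKM, and its recovered reads ran from 0 to 65 per library in the 4 lines, so no test was made. That read count is approximate, since 35 gene lengths gave whole reads for CCND2. CCND3 (ENSG00000112576.13, chromosome 6, 41934933 to 42050357, minus strand) had at least 2094 reads in every library, taking the shortest gene length that gives whole reads.

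Untreated HT had CCND3 at 92.7, 77.4 and 100.1 FPKM and treated HT at 57.3, 57.9 and 66.0. Untreated OCI-LY19 gave 63.5, 92.4 and 83.8 FPKM, and treated OCI-LY19 17.7, 27.1 and 18.7. The treated libraries of both lines lay below all untreated ones, with a change of -0.56 ± 0.14 in HT (limma adjusted p = 0.0042) and -1.88 ± 0.14 in OCI-LY19 (limma adjusted p = 1.09e-09). Untreated SUDHL5 stood at 55.3, 56.6 and 55.0 FPKM and treated SUDHL5 at 54.9, 58.7 and 58.2, with overlap (0.04 ± 0.14, limma adjusted p = 0.875). OCI-LY3 had the lowest levels, at 13.9, 14.2 and 17.2 FPKM untreated and 18.5, 18.7 and 20.6 treated. That rise of 0.34 ± 0.14 passed narrowly (limma adjusted p = 0.0476) but the call was lost on leaving out untreated replicate 1 (0.149) or 2 (0.124) or any treated replicate (0.0671, 0.0708 and 0.139), with median-of-ratios scaling (0.08, adjusted p = 0.718), with no filter (0.104), with quantile normalization (0.108) or without the 4 libraries of OCI-LY3 and OCI-LY19 whose column names end in 2nd (0.136). The fall in OCI-LY19 set it apart from each other line: the response was higher by 1.31 in HT (limma adjusted p = 2.23e-05) and by 2.21 in OCI-LY3 (2.88e-08), and OCI-LY19 minus SUDHL5 was -1.92 (3.06e-07). Among untreated lines HT and OCI-LY19 overlapped (limma adjusted p = 0.273), SUDHL5 was next, and OCI-LY3 was lower by 1.82 than SUDHL5 (6.2e-10). OCI-LY19 minus SUDHL5 was 0.50 (limma adjusted p = 0.0035), but 0.28 and not called with a covariate for the tag in library names (0.0846).

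CDK4 and CDK6 encode the kinases that cyclin D activates, and CDK4 was the more abundant in all 30 libraries. CDK4 (ENSG00000135446.17, chromosome 12, 57747727 to 57756013, minus strand) fell in 3 lines by similar amounts. OCI-LY3 went from 81.0, 81.0 and 90.9 FPKM to 53.9, 62.1 and 58.6 (-0.53 ± 0.08, limma adjusted p = 2.9e-05). OCI-LY19 went from 78.2, 85.4 and 89.0 FPKM to 50.8, 63.5 and 49.8 (-0.62 ± 0.08, limma adjusted p = 3.8e-06). SUDHL5 went from 72.1, 71.1 and 68.6 FPKM to 49.6, 51.3 and 50.3 (-0.48 ± 0.08, limma adjusted p = 0.000153). In none of these 3 lines did treated and untreated libraries overlap, and no pair of the 3 responses differed by the test (limma adjusted p = 0.37 to 0.779), which does not show that they were alike, and OCI-LY3 minus SUDHL5 passed with median-of-ratios scaling (-0.34, 0.0276). HT overlapped, at 61.3, 60.1 and 54.1 FPKM untreated and 50.7, 56.2 and 47.6 treated (-0.18 ± 0.08, limma adjusted p = 0.113). The HT change passed as lower without treated replicate 2 (0.0482) and with median-of-ratios scaling (0.0268). Its difference from SUDHL5 was 0.30 (limma adjusted p = 0.0609). With replicate numbers as a block in every line this passed (0.0405), though the numbers pair libraries in HT and not in SUDHL5. CDK4 shares 1369 exon bases with TSPAN31 on the other strand, which averaged 13.6 to 21.1 FPKM over the 4 lines.

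The promoter of CDK4 is shown for its E-boxes, the sequence CACGTG that MYC with MAX and other factors bind. The window is the 250 bases before the RefSeq start, GRCh38.p14 chr12:57752311-57752560, minus strand, and capitals mark CACGTG, a motif that reads the same on both strands.
CDK4: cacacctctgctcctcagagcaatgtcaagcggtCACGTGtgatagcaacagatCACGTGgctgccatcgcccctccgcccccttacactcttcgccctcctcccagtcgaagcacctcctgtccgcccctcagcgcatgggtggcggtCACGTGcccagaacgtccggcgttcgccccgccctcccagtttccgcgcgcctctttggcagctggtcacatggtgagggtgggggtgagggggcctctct
The 3 matches begin at positions -216, -196 and -101 relative to the start. Of 35116 promoter windows of this length 6.34% held at least 1 CACGTG and 28 windows (0.0797%) at least 3. No other window of the genes examined held one, and a match is a description, not evidence of binding.

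CDK6 (ENSG00000105810.10, chromosome 7, 92604921 to 92836594, minus strand) and E2F1 had the widest spread of the 9 genes, each with 2.87 on the log2 scale between the highest and lowest group mean. Untreated OCI-LY19 had 37.9, 29.5 and 33.7 FPKM and treated OCI-LY19 18.4, 22.7 and 18.5. SUDHL5 had 6.33, 6.65 and 6.51 FPKM untreated and 3.47, 3.91 and 3.77 treated. Both falls were without overlap, at -0.73 ± 0.12 (limma adjusted p = 2.26e-05) and -0.67 ± 0.12 (limma adjusted p = 0.000133). OCI-LY3 had 26.4, 27.1 and 22.0 FPKM untreated and 21.6, 21.1 and 15.4 treated, with a gap of under 1 FPKM between the groups. This fall of -0.37 ± 0.12 (limma adjusted p = 0.0111) was not called with the line fitted alone (0.059), without untreated replicate 2 (0.0512) or treated replicate 3 (-0.22, 0.0996), or without the libraries named 2nd (-0.18, 0.129). HT overlapped, at 8.29, 9.40 and 8.10 FPKM untreated and 8.86, 10.5 and 9.45 treated (0.14 ± 0.12, limma adjusted p = 0.402). The HT response differed from that of OCI-LY19 by 0.88 (limma adjusted p = 0.000248) and from that of SUDHL5 by 0.81 (0.000712).

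Among the 4 lines the balance of these kinases differed between lines more than it moved with the drug. CDK6 stood at 0.403 ± 0.0727 of CDK4 in untreated OCI-LY19 (SD, n = 3), 0.301 ± 0.0515 in OCI-LY3, 0.147 ± 0.0109 in HT and 0.0921 ± 0.00379 in SUDHL5. After doxorubicin the ratios were 0.363 ± 0.00715, 0.334 ± 0.0697, 0.187 ± 0.0119 and 0.0738 ± 0.00335. The HT and SUDHL5 ratios did not overlap before and after the drug, and those of OCI-LY19 and OCI-LY3 did. Drug-free OCI-LY19S of the second experiment had 0.214 ± 0.0235, without overlap with untreated OCI-LY19, so the ratio was not fixed for that line.

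CCNE1 and CCNE2 encode the E cyclins that activate CDK2 late in G1. CCNE1 (ENSG00000105173.14, chromosome 19, 29811898 to 29824308, plus strand) rose in OCI-LY3 from 9.94, 11.1 and 9.15 FPKM to 14.5, 16.1 and 15.2 (0.56 ± 0.09, limma adjusted p = 4.46e-05). It fell in OCI-LY19 from 13.2, 13.1 and 14.5 FPKM to 5.94, 8.03 and 6.08 (-0.94 ± 0.09, limma adjusted p = 6.46e-08). The groups were apart in both lines. HT, at 4.16, 3.93 and 3.91 FPKM untreated and 4.93, 4.80 and 3.84 treated, and SUDHL5, at 6.44, 5.86 and 6.03 untreated and 5.51, 5.88 and 6.21 treated, overlapped (limma adjusted p = 0.292 and 0.738). The 2 calls differed from each other by 1.49 (limma adjusted p = 2.67e-08).

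CCNE2 (ENSG00000175305.17, chromosome 8, 94879770 to 94896678, minus strand) moved in all 4 lines. OCI-LY3 rose from 14.8, 15.98 and 14.0 FPKM to 34.7, 41.5 and 35.0 (1.26 ± 0.11, limma adjusted p = 1.33e-08). HT rose from 21.9, 23.1 and 23.9 FPKM to 29.3, 32.6 and 26.6 (0.35 ± 0.11, limma adjusted p = 0.0193). No treated library of either line lay as low as an untreated one. The HT rise was not called without untreated replicate 1 (0.0717) or treated replicate 2 (0.0891), or with median-of-ratios scaling (0.0781). OCI-LY19 fell from 18.5, 15.2 and 16.3 FPKM to 5.94, 8.33 and 8.73 (-1.04 ± 0.11, limma adjusted p = 1.15e-07). SUDHL5 fell from 6.33, 6.12 and 6.11 FPKM to 4.0, 4.47 and 4.79 (-0.41 ± 0.11, limma adjusted p = 0.00514). All 6 differences between the responses of pairs of lines passed for CCNE2, from 0.63 between SUDHL5 and OCI-LY19 (limma adjusted p = 0.00252) to 2.29 between OCI-LY3 and OCI-LY19 (7.47e-10). Within a library CCNE2 was 5.75 ± 0.435 times CCNE1 in untreated HT (SD, n = 3), 1.49 ± 0.0452 times in OCI-LY3, 1.23 ± 0.150 times in OCI-LY19 and 1.01 ± 0.0310 times in SUDHL5. After doxorubicin it was 6.56 ± 0.533, 2.43 ± 0.141, 1.16 ± 0.242 and 0.753 ± 0.0237 times CCNE1, with no overlap before and after in OCI-LY3 and SUDHL5. CCNE2 shares 1629 exon bases with INTS8 on the other strand, and that gene averaged 17.3 FPKM in untreated and 24.6 FPKM in treated OCI-LY3. Whether the authors' counting used the strand of the reads is not given in the sources used here, and the part of this overlap was not tested.

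CDK2 (ENSG00000123374.11, chromosome 12, 55966769 to 55972784, plus strand), the kinase of cyclin E, had the most even start of the 9 genes. Untreated levels were 30.9, 28.99 and 33.2 FPKM in OCI-LY3, 29.5, 29.6 and 29.3 in HT, 26.2, 30.3 and 28.98 in OCI-LY19 and 25.5, 25.9 and 26.1 in SUDHL5. It alone of the 9 did not pass the test for any difference among untreated lines (limma adjusted p = 0.102), where 8 genes passed, against 90.5% of all genes. It did pass with FPKM rescaled to one total per library, TPM (0.00358), with median-of-ratios scaling (0.016), and without treated OCI-LY19 replicate 1 (0.0101) or 2 (0.031). After doxorubicin CDK2 spread out, to 83.7, 80.6 and 84.4 FPKM in OCI-LY3, 40.7, 39.4 and 41.7 in HT, 12.9, 19.7 and 16.95 in OCI-LY19 and 18.5, 21.8 and 20.4 in SUDHL5. In each line the groups were apart, and the changes were 1.39 ± 0.10 in OCI-LY3 (limma adjusted p = 8.84e-10), 0.45 ± 0.10 in HT (0.00147), -0.77 ± 0.10 in OCI-LY19 (1.29e-06) and -0.34 ± 0.10 in SUDHL5 (0.0081). OCI-LY3 minus SUDHL5 also passed as a single untreated difference (0.25, limma adjusted p = 0.0273), which was lost without any of 5 untreated libraries of the pair. The fall in SUDHL5 was not called without treated replicate 1 (-0.28, adjusted p = 0.0503). All 6 differences between pairs of lines passed for CDK2 as well, from 0.43 between SUDHL5 and OCI-LY19 (limma adjusted p = 0.0163) to 2.16 between OCI-LY3 and OCI-LY19 (3.56e-10). CDK2 overlaps PMEL, a melanosome gene, by 89 exon bases on the other strand, and the antisense gene AC025162.1 by 565. In OCI-LY3 PMEL averaged 5.27 FPKM untreated and 15.6 treated, and AC025162.1 40.1 and 117, and their part in the CDK2 values was not tested.

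**Figure D2:**
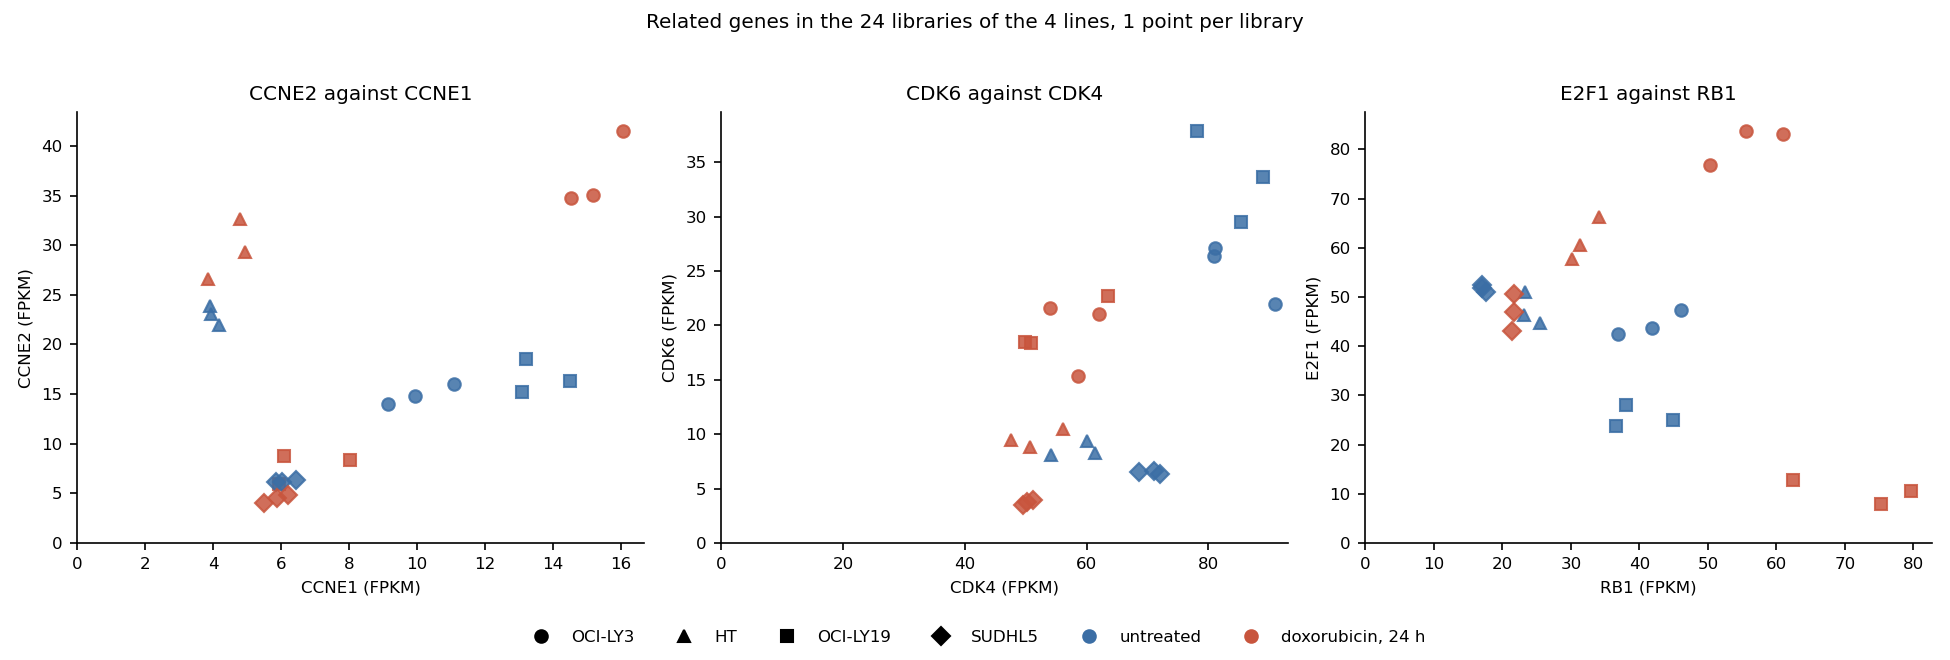
Related genes plotted against each other in FPKM, 1 point per library of the 4 lines: CCNE2 against CCNE1, CDK6 against CDK4, and E2F1 against RB1, with shape for the line and blue (untreated) or red (doxorubicin) for the group. HT lies apart with high CCNE2 at low CCNE1, CDK6 is high only in OCI-LY19 and OCI-LY3, and OCI-LY19 moves to high RB1 and low E2F1 while OCI-LY3 moves up in both.

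RB1 encodes the retinoblastoma protein and RBL1 its relative p107, which also binds E2F factors and is itself a known E2F target. RB1 (ENSG00000139687.16, chromosome 13, 48303726 to 48599436, plus strand) was higher in every treated library than in every untreated library of its line. OCI-LY19 rose from 45.0, 38.0 and 36.6 FPKM to 75.2, 62.4 and 79.6 (0.84 ± 0.09, limma adjusted p = 2.9e-07). OCI-LY3 went from 41.9, 46.1 and 37.0 FPKM to 55.5, 60.9 and 50.3 (0.41 ± 0.09, limma adjusted p = 0.00108), but with median-of-ratios scaling this was 0.14 and not called (0.252). HT rose from 23.4, 23.2 and 25.5 FPKM to 30.2, 31.3 and 34.1 (0.39 ± 0.09, limma adjusted p = 0.00349). SUDHL5 had the lowest RB1 and rose from 17.6, 17.03 and 17 FPKM to 21.5, 21.7 and 21.7 (0.31 ± 0.09, limma adjusted p = 0.0127), and was not called with TPM (0.24, adjusted p = 0.108). The rise in OCI-LY19 was larger than in OCI-LY3 by 0.43 (limma adjusted p = 0.0113), than in HT by 0.45 (0.00953) and than in SUDHL5 by 0.53 (0.00324). The other 3 lines did not differ by the test among themselves (0.593 to 0.962). RB1 shares no exon bases with another gene in the annotation used.

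RBL1 (ENSG00000080839.12, chromosome 20, 36996349 to 37095995, minus strand) was lower in every treated library than in every untreated library of its line. OCI-LY19 fell from 10.1, 10.2 and 9.26 FPKM to 3.74, 5.74 and 5.77 (-0.85 ± 0.10, limma adjusted p = 6.4e-07). SUDHL5 fell from 7.33, 7.68 and 8.06 FPKM to 4.55, 4.88 and 5.14 (-0.57 ± 0.10, limma adjusted p = 0.000158). The falls in OCI-LY3 and HT were less sure. They were smaller than that of OCI-LY19, by 0.57 in OCI-LY3 (limma adjusted p = 0.0027) and 0.555 in HT (0.00376). They did not differ by the test from that of SUDHL5 (limma adjusted p = 0.104 and 0.151). OCI-LY3 went from 9.26, 8.31 and 8.67 FPKM to 7.05, 7.65 and 6.4 (-0.28 ± 0.10, limma adjusted p = 0.0249), and was not called with no filter (0.0515), without untreated replicate 1 (0.0897) or treated replicate 1 or 3 (0.0525 and 0.11), or without the libraries named 2nd (-0.19, 0.223). HT went from 10.7, 11.8 and 11.0 FPKM to 8.28, 9.39 and 9.02 (-0.30 ± 0.10, limma adjusted p = 0.0306), and was not called with no filter (0.0637), with TPM (0.0731), or on leaving out untreated replicate 2 (0.102) or 3 (0.057) or treated replicate 1 (0.117) or 3 (0.0615). RBL1 as a share of RB1 went from 0.249 ± 0.0226 to 0.0714 ± 0.0212 in OCI-LY19 (SD, n = 3), from 0.447 ± 0.0292 to 0.225 ± 0.0126 in SUDHL5, from 0.465 ± 0.0381 to 0.280 ± 0.0183 in HT and from 0.212 ± 0.0283 to 0.127 ± 0.000927 in OCI-LY3. Treated and untreated ratios did not overlap in any line.

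E2F1 (ENSG00000101412.13, chromosome 20, 33675683 to 33686404, minus strand), the activating transcription factor at the end of this chain, rose in 2 lines and fell in 1. OCI-LY3 rose from 43.8, 47.3 and 42.5 FPKM to 83.7, 83.2 and 76.9 (0.85 ± 0.11, limma adjusted p = 2.59e-06). HT rose from 51.1, 46.3 and 44.7 FPKM to 57.7, 60.6 and 66.2 (0.37 ± 0.11, limma adjusted p = 0.0158). The groups did not overlap, though the HT rise was not called without untreated replicate 3 (0.0604) or treated replicate 3 (0.0737), or with median-of-ratios scaling (0.29, adjusted p = 0.0579). OCI-LY19 started lower than the other lines, at 24.9, 28.1 and 23.7 FPKM, and fell to 7.82, 12.8 and 10.6 (-1.24 ± 0.11, limma adjusted p = 1.7e-08). SUDHL5 had 51.1, 51.9 and 52.4 FPKM untreated and 43.1, 50.6 and 46.9 treated. Those groups did not overlap, but the difference of -0.14 ± 0.11 did not pass (limma adjusted p = 0.357). All 6 differences between pairs of lines passed for E2F1, from 0.48 between OCI-LY3 and HT (limma adjusted p = 0.0272) to 2.09 between OCI-LY3 and OCI-LY19 (3.73e-09). That between OCI-LY3 and HT had 0.174 with median-of-ratios scaling and 0.0502 to 0.0713 without 1 of 6 libraries. It was also not called with no filter (0.0611) or with TPM (0.0621).

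Untreated OCI-LY19 had less E2F1 than untreated HT by 0.86 (limma adjusted p = 1.1e-06), OCI-LY3 by 0.78 (4.62e-06) and SUDHL5 by 0.99 (1.42e-07). The other 3 untreated lines did not differ by the test (0.102 to 0.545). HT minus SUDHL5 passed with median-of-ratios scaling (-0.33, limma adjusted p = 0.0129). RB1 stood at 1.57 ± 0.227 times E2F1 in untreated OCI-LY19 (SD, n = 3) and at 7.33 ± 2.38 times after doxorubicin. In OCI-LY3 the ratio went from 0.934 ± 0.0568 to 0.683 ± 0.0432, in HT from 0.510 ± 0.0574 to 0.518 ± 0.00396 and in SUDHL5 from 0.333 ± 0.0108 to 0.463 ± 0.0345. Only HT overlapped before and after. In OCI-LY19S, the drug-free parental culture of the second experiment, RB1 stood at 0.461 ± 0.0526 times E2F1. The ratio of untreated OCI-LY19 thus did not recur there, and the reason was not tested.

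The promoters of E2F1 and RBL1 are shown because both hold paired E2F motifs near the start. Their RNAs went the same way in OCI-LY19 and opposite ways in OCI-LY3 and HT. The RBL1 falls in OCI-LY3 and HT and the E2F1 rise in HT were not called in some settings. In SUDHL5 RBL1 fell and E2F1 did not pass. A link between the motifs and these changes was not tested. Windows are the 250 bases before the RefSeq start in GRCh38.p14, E2F1 at chr20:33686386-33686635 and RBL1 at chr20:37095998-37096247, both on the minus strand. Capitals mark TTTCCCGC, TTTCGCGC, TTTGCCGC or TTTGGCGC on either strand.
E2F1: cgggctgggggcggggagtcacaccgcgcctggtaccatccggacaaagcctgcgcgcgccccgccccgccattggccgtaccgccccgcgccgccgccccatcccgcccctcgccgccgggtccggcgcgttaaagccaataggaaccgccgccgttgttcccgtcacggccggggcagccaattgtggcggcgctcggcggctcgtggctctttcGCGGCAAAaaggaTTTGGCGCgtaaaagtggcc
RBL1: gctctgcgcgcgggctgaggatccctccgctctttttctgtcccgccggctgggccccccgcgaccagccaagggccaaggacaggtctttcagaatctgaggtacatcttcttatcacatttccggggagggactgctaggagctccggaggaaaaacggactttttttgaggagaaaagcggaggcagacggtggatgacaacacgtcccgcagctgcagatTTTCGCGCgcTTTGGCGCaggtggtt
In E2F1 the first match, TTTGCCGC, lies on the opposite strand at positions -33 to -26 relative to the start, and TTTGGCGC lies at -20 to -13. RBL1 has TTTCGCGC at -26 to -19 and TTTGGCGC at -16 to -9, both on the coding strand. At least 1 match was found in 979 of the 35116 windows (2.79%) and at least 2 in 43 (0.122%). The RefSeq table gave 10 windows for 7 of the 10 genes, and the other 8 windows, of CCND3, CCNE1, CDK4, CDK6 and RB1, held none of these letters. That says nothing of binding elsewhere, and the RB1 window belongs to a start inside the gene. CCND2, CCNE2 and CDK2 had no window.

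**Figure D3:**
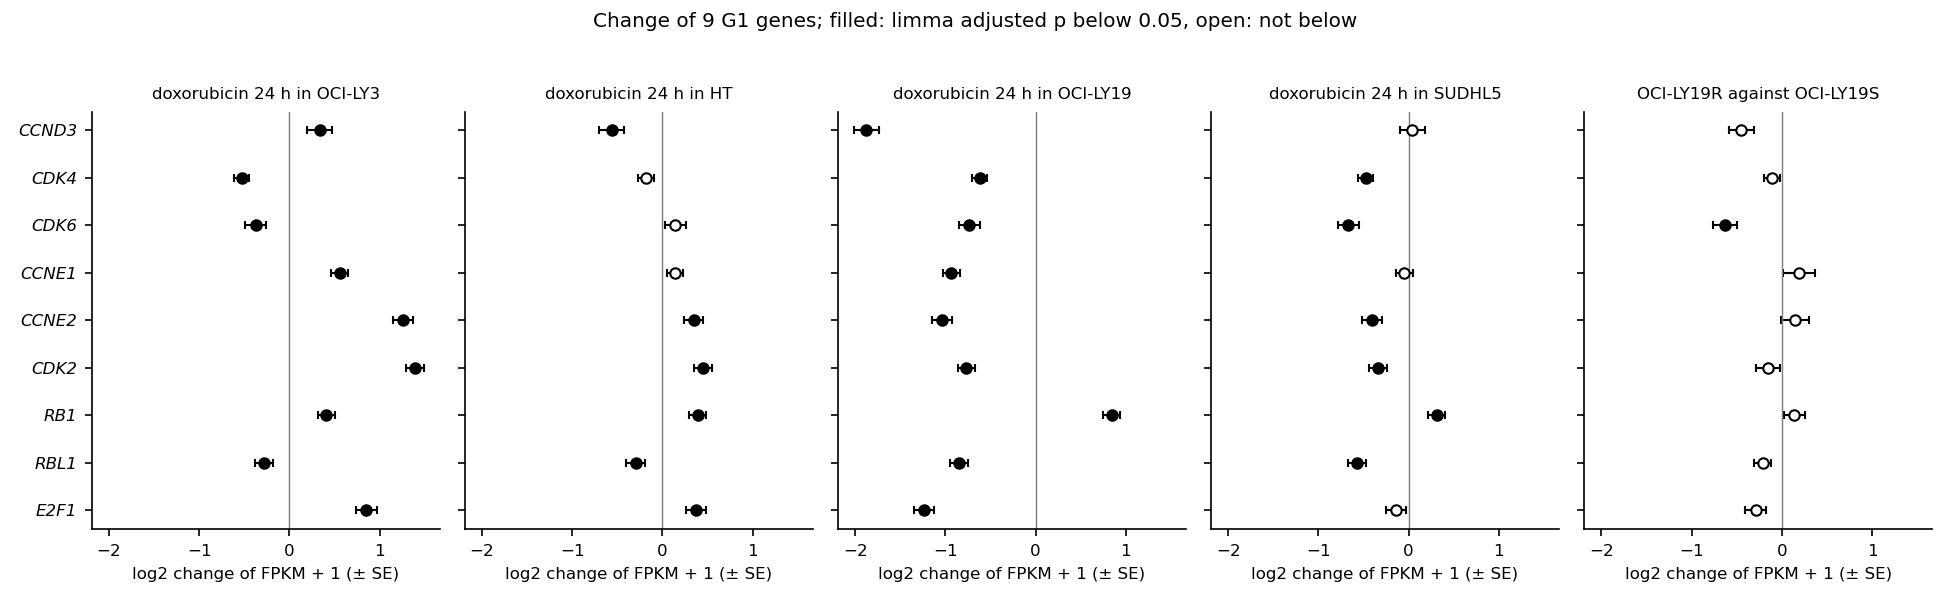
Change of log2(FPKM + 1) with its SE for the 9 genes tested, in 1 panel per comparison; filled points have a limma adjusted p below 0.05. CCNE1, CCNE2, CDK2 and E2F1 lie right of 0 in OCI-LY3 and left of it in OCI-LY19, RB1 lies right of 0 and RBL1 left of it in every line, and only CDK6 is filled in the comparison of OCI-LY19R with OCI-LY19S.

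The response to doxorubicin differed among the 4 lines for 9 of 9 genes by limma's F test of the interaction, against 72.2% of all genes. Between OCI-LY3 and OCI-LY19 the response was higher in OCI-LY3 for 6 genes and lower for 1, RB1, against 47.7% of all genes in either direction. HT was higher than OCI-LY19 for 8 and lower for RB1 (45.2%), where the CDK4 difference of 0.44 was 0.21 and not called with quantile normalization (0.139). OCI-LY3 was higher than SUDHL5 for 4 and lower for 0 (49.4%), and higher than HT for 5 and lower for 2, CDK4 and CDK6 (29.4%). Those last differences were narrow. That of CDK4 (-0.35, limma adjusted p = 0.0367) had 0.0538 to 0.0995 without 1 of 6 libraries. That of CDK6 (-0.51, 0.0247) had 0.0526 to 0.0744, likewise without 1 of 6. The CDK6 difference was also not called with no filter (0.0549), with quantile normalization (0.0532) or without the libraries named 2nd (0.0684). The CCNE1 difference, among the 5 higher (0.42, 0.0218), was 0.24 with median-of-ratios scaling (0.179) and was also not called with TPM (0.0549) or without untreated OCI-LY3 replicate 3 (0.0588) or treated HT replicate 3 (0.0647). HT was higher than SUDHL5 for 4 and lower for CCND3 (37.0%), which was not called without untreated HT replicate 3 (-0.53, 0.0569). OCI-LY19 was lower than SUDHL5 for 5 and higher for RB1 (43.9%). Comparisons that share a line share its 6 libraries. Among untreated lines, of the 9 genes 7 differed between OCI-LY3 and HT (62.1% of all genes), 4 between OCI-LY3 and OCI-LY19 (62.8%), 7 between OCI-LY3 and SUDHL5 (66.0%), 6 between HT and OCI-LY19 (64.4%), 7 between HT and SUDHL5 (67.0%) and 8 between OCI-LY19 and SUDHL5 (71.0%). Some of these rested on the scaling. RBL1 between OCI-LY3 and HT was not called with median-of-ratios scaling (0.586) or quantile normalization (0.304), nor CDK6 between HT and SUDHL5 (0.19 and 0.187). CDK4 between HT and SUDHL5 was not called with TPM (0.264), nor between OCI-LY19 and SUDHL5 with median-of-ratios scaling (0.0866). Other calls were lost with a covariate for the tag in library names. They were CCND3 (0.0846) and RBL1 (0.0525) between OCI-LY19 and SUDHL5, and CDK4 (0.0529) and CDK2 (0.117) between OCI-LY3 and SUDHL5. The median change of the 9 genes was 0.41 in OCI-LY3 (all genes 0.16), 0.14 in HT (0.06), -0.85 in OCI-LY19 (0.08) and -0.34 in SUDHL5 (0.00).

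The wider pathway was described with 3 lists: 20 textbook E2F target genes of DNA replication and S phase, 17 other genes of RB and E2F control, and 7 CDK inhibitors. They were chosen with results of these data known and support no direction. E2F targets fell in 18 of 20 in OCI-LY19 (median -1.05) and in 14 of 20 in SUDHL5 (median -0.55), where 0 and 1 rose. Of all genes 23.7% fell in OCI-LY19 and 19.9% in SUDHL5. The count rising was 1 in OCI-LY19 with quantile normalization and 2 in SUDHL5 with the line fitted alone. In OCI-LY3 13 rose, where 40.4% of all genes did, and 1, the helicase subunit gene MCM7, fell (median 0.43). That was 6 rising and 2 falling with median-of-ratios scaling, and 0 fell with quantile normalization. In HT 6 rose, near the 22.9% of all genes, and 2, MCM5 and MCM7, fell (median 0.20). Only 3 rose there without untreated replicate 1 or treated replicate 1, 2 or 3, 2 with median-of-ratios scaling, and 10 without the libraries named 2nd.

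In OCI-LY19 the helicase subunit gene MCM6 fell from 60.5 ± 4.85 to 13.9 ± 3.88 FPKM (SD, n = 3, as for the values that follow) and UHRF1, which recruits DNA methyltransferase to replicating DNA, from 87.3 ± 6.57 to 22.8 ± 7.89. In SUDHL5 the cyclin A gene CCNA2 fell from 76.7 ± 0.721 to 32.1 ± 1.96 FPKM and GINS2, of the replicative helicase, from 29.4 ± 0.546 to 13.5 ± 0.275. PCNA, the replication clamp and also a known p53 target, was the 1 E2F target that rose in SUDHL5, by 0.53 (limma adjusted p = 8.6e-05), and with TYMS 1 of the 2 that did not pass in OCI-LY19 (limma adjusted p = 1 for both). Some genes are named outside the rule for examples, after their values were seen. They are MCM7 in the counts above, PCNA, and CDKN2B and CDKN2C in OCI-LY19 and SUDHL5. CDKN1A in HT and E2F7 in lines other than OCI-LY3 are also outside it. In OCI-LY3 TK1, thymidine kinase, rose from 64.5 ± 13.3 to 212 ± 22.4 FPKM and CDT1, a licensing factor of replication origins, from 26.8 ± 8.96 to 50.8 ± 10.7. TK1 also rose in HT, from 58.8 ± 7.03 to 94.0 ± 13.5, and TYMS, thymidylate synthase, from 106 ± 6.69 to 145 ± 10.9.

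CDK inhibitors showed another split. CDKN1A, which encodes p21, rose from 23.8 ± 2.99 to 524 ± 29.3 FPKM in OCI-LY19 and from 13.2 ± 0.41 to 236 ± 7.43 in SUDHL5, the lines where most E2F targets fell. It was low in OCI-LY3, where it rose from 0.743 ± 0.423 to 5.62 ± 2.05, and stood at 0.151 ± 0.0246 and 0.205 ± 0.0313 in HT. All 6 inhibitors tested rose in OCI-LY3 (median 1.25, with 40.4% of all genes rising), among them CDKN1B, which encodes p27, from 0.887 ± 0.393 to 8.08 ± 1.21 and CDKN2D, a CDK4 and CDK6 inhibitor, from 8.54 ± 2.32 to 19.5 ± 2.99. In HT 4 of the 6 rose, against 22.9% of all genes, and 0 fell (median 0.50), or 2 rose without untreated replicate 2 or treated replicate 3. CDKN1B went from 6.29 ± 0.417 to 11.9 ± 3.52 there. OCI-LY19 had CDKN1A rising and CDKN2C falling (-0.51, limma adjusted p = 0.02). The CDKN2C call was lost on leaving out untreated replicate 2 or treated replicate 1 or 3, with the line fitted alone or with a covariate for the tag in library names. With that covariate 2 inhibitors rose in OCI-LY19. In SUDHL5 CDKN1A and CDKN2B rose (1 gene with the filter at 5 FPKM), while CDKN1B fell from 29.5 ± 2.24 to 13.8 ± 0.71 and CDKN2D from 15.3 ± 1.29 to 8.54 ± 0.802.

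Of the other RB and E2F genes 16 of 17 were tested, all but CCND1, whose group means were at most 0.382 FPKM. In OCI-LY3 7 rose and 4 fell, in HT 2 and 2, in OCI-LY19 4 and 10 and in SUDHL5 5 and 6. The shares of all genes rising and falling were 40.4% and 14.3% in OCI-LY3, 22.9% and 9.41% in HT, 34.5% and 23.7% in OCI-LY19 and 18.6% and 19.9% in SUDHL5, so the rising counts in OCI-LY3, HT and OCI-LY19 were near or below the background. With median-of-ratios scaling OCI-LY3 had 2 rising and 7 falling, with quantile normalization 7 falling and without the libraries named 2nd 2 falling. HT had 1 falling with the replicate block, with TPM, with the line fitted alone, or on leaving out replicate 1 or 3 of either HT group. It had 1 rising with median-of-ratios scaling or without untreated replicate 2 or treated replicate 3, and 0 with quantile normalization. SUDHL5 had 2 rising with TPM and 3 without treated replicate 1. E2F7, an atypical repressor of E2F targets, rose in all 4 lines, by 1.68 in OCI-LY3, 0.45 in HT, 1.26 in OCI-LY19 and 0.77 in SUDHL5 (limma adjusted p = 1.27e-10, 0.0014, 1.9e-09 and 3.7e-06). E2F4, the main E2F of resting cells, fell in OCI-LY3 from 43.0 ± 1.72 to 19.7 ± 2.39 FPKM and in HT from 58.0 ± 2.20 to 36.0 ± 4.05. RBL2, which encodes p130, the RB relative of resting cells, rose in OCI-LY19 from 15.9 ± 0.889 to 51.5 ± 10.1, and TFDP1, the DNA-binding partner of E2F factors, fell from 112 ± 5.79 to 43.7 ± 5.58. SKP2, which marks p27 for destruction, fell in SUDHL5 from 13.9 ± 0.158 to 5.46 ± 0.71.

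**Figure D4:**
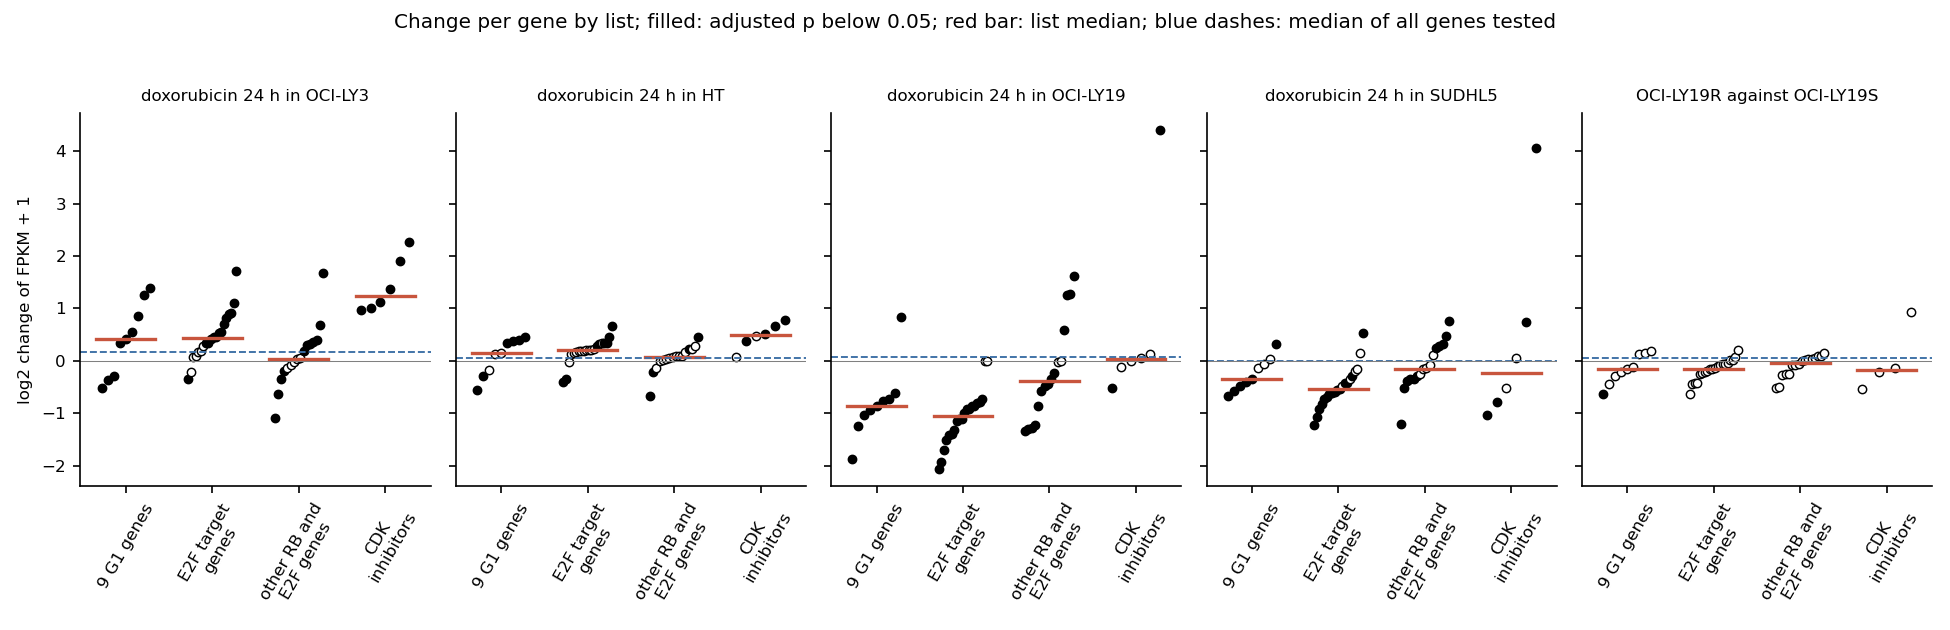
Change of log2(FPKM + 1) for each gene of the 9 G1 genes, the E2F targets, the other RB and E2F genes and the CDK inhibitors, in 1 panel per comparison; filled points have a limma adjusted p below 0.05, red bars are list medians and blue dashes the median of all genes tested. The E2F target median is -1.05 in OCI-LY19 and 0.43 in OCI-LY3, and CDKN1A is the single high point, at 4.41 and 4.06, in OCI-LY19 and SUDHL5.

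By limma OCI-LY19R differed from OCI-LY19S in 1 of the 9 genes tested, where 5.44% of all genes differed. CDK6 stood at 17.9, 23.6 and 24.7 FPKM in the parental libraries and at 14.8, 13.3 and 13.3 in the resistant ones, without overlap (-0.63 ± 0.13, limma adjusted p = 0.0423). This single call was lost with no filter (0.131), with the replicate block (0.0971), and without OCI-LY19S replicate 2 or 3 (0.146 and 0.0983) or OCI-LY19R replicate 1, 2 or 3 (0.0879, 0.205 and 0.173). In the authors' deposited table, a test of the same libraries, CDK6 had a log2 fold change of -0.75 and an adjusted p of 0.000283. CDK6 was 0.214 ± 0.0235 of CDK4 in OCI-LY19S and 0.146 ± 0.00476 in OCI-LY19R (SD, n = 3), without overlap. The antisense gene AC002454.1, which shares 81 exon bases with CDK6, averaged 4.32 and 1.32 FPKM, and its part was not tested.

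CCND3 had 130, 126 and 140 FPKM in the parental culture and 115, 94.8 and 82.4 in the derivative, without overlap (-0.45 ± 0.13, limma adjusted p = 0.108). The authors' deposited table gives it -0.51 with an adjusted p of 0.0183. E2F1 had 57.1, 42.4 and 49.2 FPKM against 39.7, 41.8 and 38.7, also without overlap (-0.29 ± 0.12, limma adjusted p = 0.203; -0.38 and 0.0657 in the authors' deposited table). RBL1 had 8.27, 8.04 and 9.69 FPKM against 7.36, 7.19 and 7.41 (-0.21 ± 0.09, limma adjusted p = 0.215). Its groups did not overlap either. The other 5 genes overlapped, and the share of all genes without overlap was not counted. RB1 ran from 19.9 to 26.7 FPKM in the parental and from 24.2 to 26.0 in the resistant libraries (0.14 ± 0.12, limma adjusted p = 0.522). CDK4 ran from 95.5 to 109 and from 92.2 to 98.1, CDK2 from 25.9 to 36.4 and from 26.1 to 28.97, CCNE1 from 12.4 to 21.4 and from 19.3 to 19.8, and CCNE2 from 9.88 to 15.8 and from 12.8 to 14.5 FPKM. OCI-LY19S replicate 1 lay farther from its group than any other library (root mean square log2 difference of 0.425 from the other 2), and its CCNE1, CCNE2 and CDK2 were the lowest and its RB1 and E2F1 the highest of the 3. None of the 20 E2F targets, 16 other RB and E2F genes or 4 CDK inhibitors tested passed with limma, where 5.44% of all genes did. Their medians were -0.15, -0.04 and -0.18 where all genes had 0.05. The single library OCI-LY19S replicate 1 or OCI-LY19R replicate 1 left out gave 1 falling gene in the first or the second list.

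Genes with the most similar pattern were sought over the 8 group means of the 4 lines, as the smallest root mean square difference of centred log2 values among 11322 genes. For CDK2 these were TIMELESS (0.154), a replication fork protein gene, PMEL (0.158), which overlaps CDK2, and FANCI (0.168), of the Fanconi anemia repair pathway. E2F1 was most like CENPM (0.212), a centromere protein gene, MYBL2 (0.224), an E2F target, and ASF1B (0.262), a histone chaperone gene. RBL1 was closest to SRSF10 (0.0711), a splicing factor gene, and CCNE2 to HAUS1 (0.211), of the augmin complex of the spindle, and CBX5 (0.267), which encodes HP1 alpha. CCNE1 was most like RASSF5 (0.154), CDK6 like PREP (0.28), RB1 like ZMIZ2 (0.152) and CCND3 like PRKCE (0.419), a protein kinase C gene. CDK4 moved over 0.73, under the range of 1 set for this search.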

How the data were processed

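Poly(A) RNA of 30 libraries was sequenced after a directional library preparation, per the labels' protocols. Per the submitters' processing notes, the tools were Trimmomatic, STAR and featureCounts and the build was hg38. Tool versions, the annotation release and whether counting used the strand were not given in the sources used here. Values in FPKM were deposited by the authors in 2 tables normalized separately. The resistance table also holds the authors' log2 fold changes, p-values, test score and mean signal. Gene versions that match GENCODE 29 (39344 of 60656) let reads per library be recovered: 100.0% of values came out whole within 0.01 read. For 9 of the 10 members the gene version differs, and their reads use the shortest length that gives whole reads within 0.02 read. Symbols came from the reference table for 60445 genes and from the deposited table for 49.

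log2(FPKM + 1) was fitted with limma 3.58.1 in R 4.3.3, with group means, a trended prior and Benjamini-Hochberg adjustment over genes that reached FPKM 1 in 3 or more libraries. The fit of the 4 lines had 16 residual degrees of freedom and that of the resistance experiment 4. It was tested on simulated data. The members and lists were chosen with earlier results of these data known. All 10 members are named. From each pathway list up to 3 genes per comparison were taken as examples, those with the largest change that passed, did not overlap and had a mean of at least 5 FPKM in the higher group. An example that met this rule is not reported here. The titles of treated libraries hold both DOXO and ctrl, and their treatment label gives doxorubicin. Similar genes were the 3 nearest with a symbol, for members whose group means spanned at least 1.

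In HT same-numbered untreated and treated libraries share a name tag, and their deviations correlated at 0.167, 0.32 and 0.347. Same-numbered OCI-LY3 libraries share a tag as well, those of OCI-LY19 do so in part, and SUDHL5 libraries have no such tag. Nothing in the names says what the tags stand for. Alternatives were the pseudocount, the filter, 3 scalings, the block, the library-name tag, the line alone and each library left out. Leaving out the libraries named 2nd was chosen after seeing the data. Promoters are RefSeq, GRCh38.p14. Gene positions are from GENCODE 29.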

Additional observations from a re-analysis of the deposited data

Results flagged for a closer look

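The response to doxorubicin differed among the 4 lines for each of the 9 genes tested, by limma's F test of the interaction with adjustment over all 17645 genes, of which 72.2% passed. Adjusted p-values were 7.96e-10 for CDK2, 2.1e-09 for CCNE2, 1.16e-08 for E2F1, 6.17e-08 for CCND3, 1.1e-07 for CCNE1, 0.00039 for CDK6, 0.0042 for RBL1, 0.00608 for RB1 and 0.0168 for CDK4. For CDK2, CCNE2, E2F1 and CCNE1 the change was upward in OCI-LY3 and downward in OCI-LY19. RB1 and RBL1 went 1 way in all 4 lines, and their sizes differed. The CDK4 result had 0.0618 without treated HT replicate 2, 0.0607 without untreated HT replicate 3 and 0.0998 with quantile normalization.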

How the results depend on the processing

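No single-gene difference that passed, in the fit reported or in the alternative, had the opposite sign in the other. Differences that did not pass could change sign, such as CCND3 in SUDHL5 (-0.04 to 0.09), CCNE1 in OCI-LY19R (-0.02 to 0.35) and CDK4 between the responses of OCI-LY3 and SUDHL5 (-0.34 to 0.02). The count of genes called in OCI-LY19R against OCI-LY19S went from 1 to 0 with no filter and with the replicate block. Leaving out each library in turn gave 0 to 1 there. The like counts were 6 to 9 for OCI-LY3, 4 to 6 for HT, 9 to 9 for OCI-LY19, 5 to 6 for SUDHL5, 8 to 9 for the interaction and 8 to 9 among untreated lines. The replicate block paired libraries by number. It changed no call of the 9 genes in the 4 lines. Outside HT at least 1 same-numbered pair per line correlated below 0.1. Other pairs correlated higher, at 0.355 and 0.259 in OCI-LY19 (replicates 1 and 2) and 0.362 in OCI-LY3 (replicate 3). Pairing by number is thus uncertain in OCI-LY19 and OCI-LY3, and the fit reported leaves it out. Among pairwise differences the block made that of CCND3 between OCI-LY3 and SUDHL5 pass (0.0319), that of CDK6 between OCI-LY3 and OCI-LY19 (0.0421) and that of CDK4 between HT and SUDHL5. Of the values of single genes, 2120 kept their side of the threshold on leaving out a library, 64 lost it and 12 gained it. The other settings gave 1818, 45 and 24. Causes were not tested. Precision rests on 3 libraries per group, and CCND2, with at most 65 reads in a library, is below what this depth can compare outside OCI-LY3.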
